A study of Mus musculus with 12 samples.

Results

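The intestine of mice given both melphalan and mesenchymal stem cells, the Mel+MSC group, was set against that of untreated mice to ask which genes still stood away from the untreated level. The comparison was between 6 of the 12 libraries of the series, 3 labelled Mel+MSC and 3 labelled as wild type control, here Control. It covered the 12847 of 55484 listed genes that reached 1 FPKM in at least 3 of the 12 libraries. FPKM counts the fragments of a gene, divided by its transcript length and by the mapped fragments of the library. All libraries are total RNA from small intestine of Mus musculus. The Mel+MSC mice received melphalan and human umbilical cord mesenchymal stem cells, the Melphalan mice received the drug alone, and the MSC+Mel mice received both with the names in the other order. Controls carry no treatment in the labels. The labels give no dose, hour of collection, strain or age, and do not say what the order of the names stands for. They do not state that the 3 libraries of a group are separate animals, so every p reflects variation from library to library alone, possibly technical. The fit held all 12 libraries, so this variation also came from the Melphalan and MSC+Mel libraries.

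Melphalan is a bifunctional alkylating drug used against myeloma and before stem cell transplantation. It crosslinks DNA, activates p53 and kills dividing cells, and its main injury outside the marrow is to the gut lining. That lining is renewed from stem cells at the crypt base, marked by Lgr5 and Olfm4. Their daughters divide in the crypt and mature into absorptive enterocytes or into secretory cells. Goblet cells make mucus, Paneth cells release antimicrobial defensins at the crypt base, tuft cells sense luminal content and enteroendocrine cells release hormones. Mesenchymal stem cells are stromal cells given for the factors they release.

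No gene passed the test between Mel+MSC and Control. Of the 12847 genes, 0 (0%) reached an adjusted p under 0.05 in limma's moderated test on log2(FPKM + 1), and the smallest adjusted p was 0.0873. At an unadjusted p under 0.05 there were 694 genes (5.4%), of which 335 (2.61%) were higher and 359 (2.79%) lower in Mel+MSC. The plot of p-values is close to flat. In the same fit, Melphalan against the same Control libraries gave 171 genes (1.33%), with 64 (0.498%) higher and 107 (0.833%) lower, and 2336 (18.2%) at an unadjusted p under 0.05. That count was 9 without Control 1, 18 without Control 2, 420 without Control 3, 123, 409 and 38 without Melphalan 1, 2 and 3, and 73 with a replicate block. The interval of the Mel+MSC difference, at 95%, lay wholly between -1 and 1 on the log2 scale for 9201 genes (71.6%). For the other 3646 genes a difference of 1 or more on that scale, in either direction, lay within reach of the interval. The missing calls thus do not show that these genes stood at the Control level. The scale is log2(FPKM + 1), so in low genes a difference of 1 stands for more than a 2-fold change in FPKM.

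**Figure D1:**
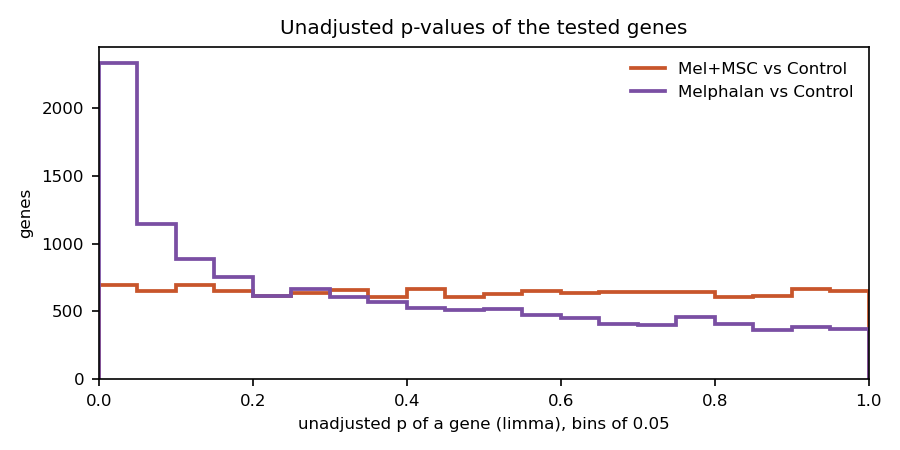
Number of tested genes (vertical axis) by unadjusted p in bins of 0.05 (horizontal axis), for Mel+MSC against Control and for Melphalan against Control. The first bin holds 694 genes for Mel+MSC, close to its other bins, and 2336 for Melphalan.

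The libraries of both groups were uneven. Spearman correlations over the tested genes were 0.907 to 0.957 among the Mel+MSC libraries, 0.909 to 0.957 between Mel+MSC and Control libraries, and 0.943 to 0.957 among the Control libraries. The mean variance of a gene within its group was 0.293 in Mel+MSC and 0.176 in Control. It was 0.42 in Melphalan and 0.0806 in MSC+Mel, which share the fit. Low FPKM values fall on steps of single fragments, which put the depth of the Mel+MSC libraries at 0.887, 1.12 and 0.921 and that of Control at 1, 1.15 and 0.847, all relative to Control 1. The step in Mel+MSC 3 was weak and rests on 17 genes. Mel+MSC 3 was lowest of the 6 libraries in goblet, tuft and Paneth genes, while Control 3 was lowest of the Control libraries in crypt and mitotic genes. Mel+MSC 2 and Control 2 carried lymphoid follicle genes, with the B cell gene Ms4a1 at 8.98 and 7.75 FPKM, against at most 0.275 in the other 4 libraries, and Melphalan 2 held it at 58.3. Without Mel+MSC 3 the test called 1 gene, and without Control 3 it called 1 gene. Weighting the libraries by their quality in limma, which gave Mel+MSC 3 a weight of 0.182 and Mel+MSC 2 a weight of 5.13, called 226 genes (132 higher, 94 lower), although the estimate of these weights did not converge. A second way of estimating the weights, added after seeing the data, called 13.

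Markers of small intestinal epithelium were high in all 6 libraries. Vil1, an actin-bundling protein of the brush border, ran from 514 to 612 FPKM in Mel+MSC and from 374 to 655 in Control. Sis, the sucrase-isomaltase of the brush border, ran from 2153 to 2264 FPKM in Mel+MSC and from 1389 to 2066 in Control. Muc2, the defining goblet cell mucin, was listed at only 0.116, 0.669 and 0.631 FPKM in Mel+MSC and 3.52, 0.887 and 0.182 in Control, although other goblet genes were abundant. Cela3b, a pancreatic acinar marker, was at 0 in all 6 libraries.

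The named genes with the smallest p were an alpha-globin gene and Ido1. Hba-a1, an alpha-globin gene (ENSMUSG00000069919, GRCm38 chromosome 11, 32283511 to 32284465, plus strand), stood at 0.634, 0.621 and 0 FPKM in Mel+MSC, against 37.3, 11.7 and 13.9 in Control. The groups did not overlap, and the log2 difference was -3.81 (95% interval -5.01 to -2.60, adjusted p = 0.0873). Melphalan alone gave 4.26, 1.23 and 0 FPKM, also below Control (-3.09, adjusted p = 0.0239 in limma's test). Hbb-bs, a beta-globin gene (chromosome 7, 103826534 to 103828096, minus strand), stood at 0.297, 1.39 and 0 FPKM in Mel+MSC, against 63.5, 11.1 and 13.7 in Control (-3.95, interval -5.61 to -2.29, adjusted p = 0.336). In Melphalan it stood at 7.89, 1.62 and 0 FPKM. Globin mRNA comes from red cell precursors and young red cells, and the amount of blood held in each tissue piece is not given. Alas2, the haem synthesis enzyme of red cells, was at or near 0 in the Mel+MSC libraries and between 0.252 and 1.2 FPKM in Control. The near-identical copy Hba-a2 showed the same order, at 0, 0.195 and 0 FPKM in Mel+MSC and 3.03, 2.11 and 3.29 in Control, and reads of the copies may have been split between them.

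Ido1 encodes the interferon-induced enzyme that starts the breakdown of tryptophan to kynurenine (ENSMUSG00000031551, chromosome 8, 24584136 to 24597009, minus strand). It stood at 2.84, 2.83 and 0.653 FPKM in Mel+MSC, against 17.4, 10.8 and 19.1 in Control. Every Mel+MSC library lay below every Control library, with a log2 difference of -2.50 (interval -3.31 to -1.69, adjusted p = 0.0873). Melphalan alone gave 3.98, 4.29 and 8.73 FPKM, also below Control (-1.36, adjusted p = 0.0911). The adjusted p of 0.0873 was shared by 4 genes: Hba-a1, Hba-a2, Ido1 and the predicted 4930479H17Rik, which was listed at 0 in the 3 Mel+MSC and the 3 Melphalan libraries and at 5.35, 3.24 and 1.57 FPKM in Control.

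Other genes of smallest p on the lower side spanned several functions. Defa26, a Paneth cell alpha-defensin, stood at 4.2, 15.1 and 10.5 FPKM in Mel+MSC, against 63.4, 34.5 and 34 in Control (log2 difference -2.13, adjusted p = 0.336). Nlrp9b, an inflammasome sensor of the gut epithelium, stood at 6.5, 7.83 and 5.81 FPKM in Mel+MSC, against 13.8, 13.3 and 20.4 in Control (-1.11, adjusted p = 0.446). Phlda1, a pleckstrin homology-like domain protein, stood at 2.71, 2.94 and 3.08 FPKM in Mel+MSC, against 5.28, 6.22 and 7.21 in Control (-0.88, adjusted p = 0.336). Mllt3, a chromatin reader linked to transcript elongation, and Nbn, the nibrin subunit of the double-strand break repair complex, differed by less. Mllt3 stood at 7.13, 8.63 and 7.9 FPKM in Mel+MSC and 14.5, 12.7 and 14.4 in Control (-0.74, adjusted p = 0.336), and Nbn at 3.33, 3.38 and 3.63 in Mel+MSC and 6.06, 7.04 and 5.54 in Control (-0.69, adjusted p = 0.545). In Melphalan, Mllt3 stood at 8.51, 7.03 and 7.55 FPKM (-0.77 from Control, adjusted p = 0.0288 in limma's test). Nbn stood there at 3.22, 4.06 and 3.4 FPKM (-0.66 from Control, adjusted p = 0.0579), and Mel+MSC differed from Melphalan by -0.03. Nlrp9b differed between Melphalan and Control by -0.67 (adjusted p = 0.154). Phlda1 overlapped Control in Melphalan, at 5.68, 6.16 and 6.29 FPKM. Defa26, Nlrp9b, Phlda1, Mllt3 and Nbn were lower in all 3 Mel+MSC libraries than in any Control library, a pattern that 651 genes (5.07%) shared.

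On the higher side the genes of smallest p included several metabolic enzymes. Aqp3, a water and glycerol channel (ENSMUSG00000028435, chromosome 4, 41092722 to 41098183, minus strand), stood at 21, 21.4 and 10.7 FPKM in Mel+MSC, against 4.85, 3.81 and 5.04 in Control (log2 difference 1.70, interval 1.002 to 2.388, adjusted p = 0.336). Melphalan alone gave 28.2, 25.2 and 50.1 FPKM, also above Control (2.62, adjusted p = 0.00786 in limma's test). Akr1b8, an aldo-keto reductase (chromosome 6, 34354119 to 34368463, plus strand), stood at 19.6, 29.6 and 13.4 FPKM in Mel+MSC, against 2.99, 3.76 and 4.26 in Control (2.17, interval 1.14 to 3.20, adjusted p = 0.545). Me1, the cytosolic malic enzyme that supplies NADPH, stood at 27.5, 21.1 and 25 FPKM in Mel+MSC, against 8.7, 7.69 and 9.29 in Control (1.41, adjusted p = 0.586). Melphalan alone gave 18.6, 8.68 and 44.7 FPKM for Akr1b8 (2.15 from Control, adjusted p = 0.0512 in limma's test). For Me1 it gave 26.7, 12.2 and 31 FPKM (1.25, adjusted p = 0.0791). Mel+MSC differed from Melphalan by 0.02 in Akr1b8 and 0.16 in Me1. Ephx1, the microsomal epoxide hydrolase, stood at 16.1, 11.5 and 8.9 FPKM in Mel+MSC, against 3.46, 3.8 and 1.58 in Control (1.75, adjusted p = 0.615). All 4 were higher in every Mel+MSC library than in any Control library, as were 694 genes (5.4%). Acta1, the skeletal muscle actin gene, stood at 7.91, 8.76 and 4.4 FPKM in Mel+MSC, against 0.878, 1.11 and 1.07 in Control (1.95, adjusted p = 0.586). Gramd2, the cilium kinase gene Cilk1 and the metal-responsive factor gene Mtf1 completed the set with log2 differences of 0.998, 0.60 and 0.64. In Melphalan, Cilk1 overlapped Control at 15.9, 11.9 and 15 FPKM, while Gramd2 and Mtf1 lay above Control by 0.84 and 0.61. With the quality weights, whose estimate did not converge, 14 of the 16 genes of smallest p passed limma's test, at adjusted p of 0.0163 to 0.0392. Defa26 (0.0533) and Ephx1 (0.0552) did not. The 13 genes called with the second way of weighting held, of these 16, only Hba-a1, Aqp3, Ido1, Akr1b8, Acta1 and Nbn. The 16 genes were chosen by their p in these same libraries, so passing a reweighted fit is no independent support.

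**Figure D2:**
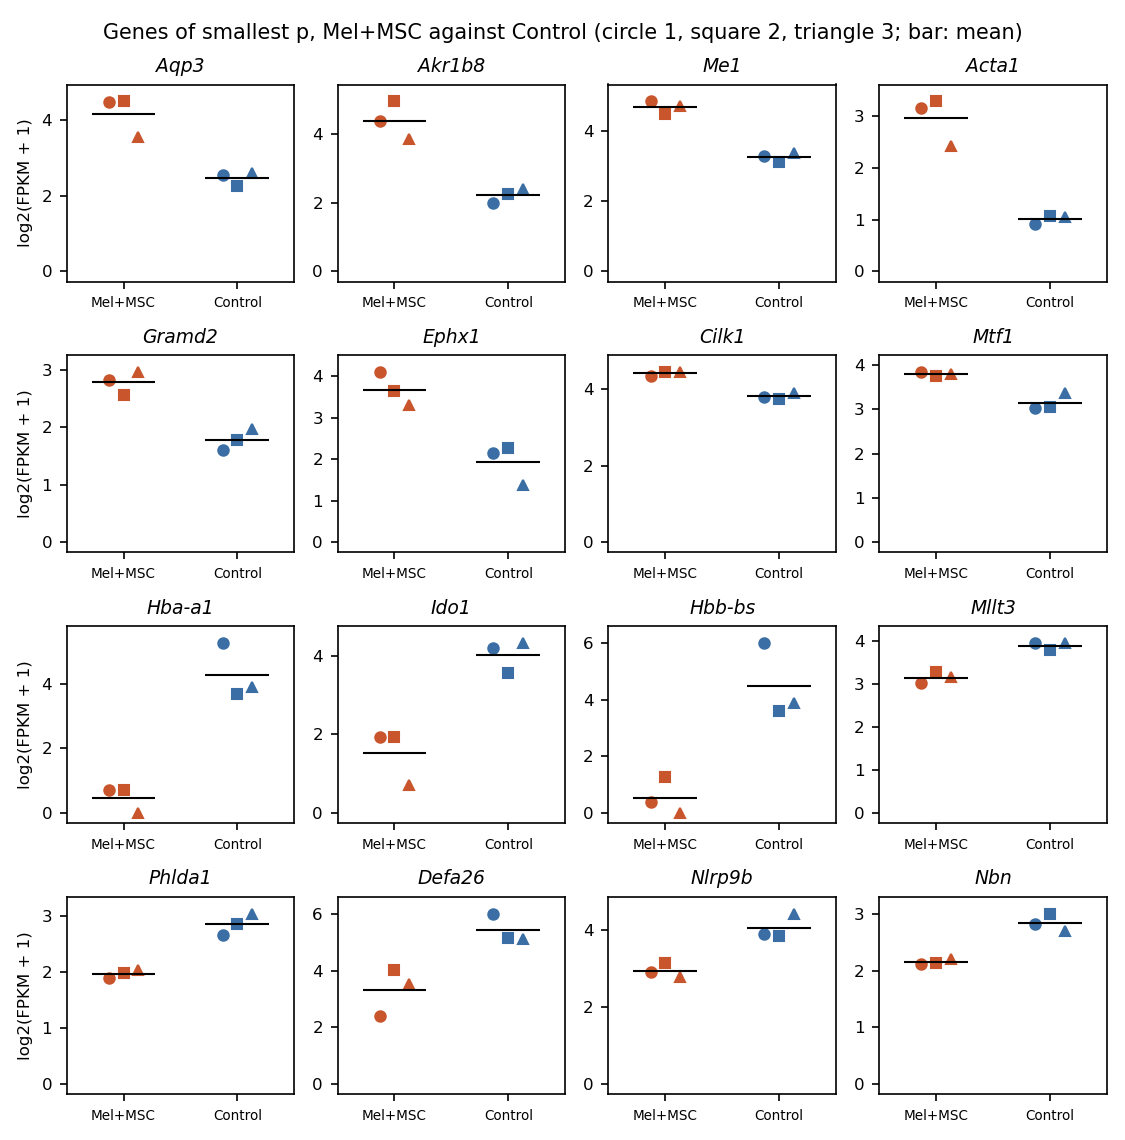
Level of the 16 genes of smallest p (8 higher, 8 lower) as log2(FPKM + 1) in each Mel+MSC and Control library, with circle, square and triangle for libraries 1, 2 and 3 and a bar for the group mean. The genes were chosen for groups that do not overlap, and no gene passed the test, with a smallest adjusted p of 0.0873.

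The genes that melphalan alone changed most were then read in the Mel+MSC libraries. Both comparisons use the same Control libraries, so the values of each gene are given side by side and no overlap is drawn from them. Among the genes that fell with the drug, Olfm4, the crypt base stem cell marker (ENSMUSG00000022026, chromosome 14, 79984081 to 80023139, plus strand), stood at 139, 87.6 and 232 FPKM in Mel+MSC, at 7.16, 2.37 and 7.99 in Melphalan and at 399, 361 and 79.5 in Control. Mel+MSC and Control overlapped through Control 3, with a log2 difference of -0.67 (interval -1.97 to 0.63, adjusted p = 0.971). The difference of Mel+MSC from Melphalan was 4.50 (adjusted p = 0.0232). The gasdermin gene Gsdmc4, of a family whose cleaved forms open pores in cell membranes, stood at 9.7, 17.3 and 23.7 FPKM in Mel+MSC, 0, 0.048 and 0.406 in Melphalan and 36.3, 29.2 and 13.4 in Control. Its Mel+MSC difference was -0.58 from Control (interval -1.46 to 0.30, adjusted p = 0.957) and 3.89 from Melphalan (adjusted p = 0.00998). Gsdmc2 followed the same order, at 5.48, 7.66 and 8.4 FPKM in Mel+MSC, 0, 0.209 and 0.129 in Melphalan and 14.2, 13.1 and 7.59 in Control. Clca3b, of the chloride channel accessory family, stood at 37.5, 36.7 and 65.2 FPKM in Mel+MSC, 7, 4.84 and 11.3 in Melphalan and 88.5, 107 and 29.9 in Control. In each of these 4 genes the Mel+MSC libraries overlapped Control and lay above every Melphalan library. They were chosen for their low level in Melphalan, so a higher level in Mel+MSC is favoured by the choice.

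The Paneth genes among them lay nearer the drug level. Defa26 stood at 3.66, 1.91 and 4.22 FPKM in Melphalan, with a log2 difference of -3.38 from Control (adjusted p = 0.00786) beside the -2.13 of Mel+MSC. Defa40 stood at 3.11, 10.4 and 7.29 FPKM in Mel+MSC, 3.24, 2.42 and 1.25 in Melphalan and 35.2, 15.4 and 26.8 in Control, and Mel+MSC differed from Control by -1.80 (interval -2.83 to -0.78, adjusted p = 0.627). Neither defensin differed from Melphalan in the test (adjusted p = 0.24 for Defa26 and 0.314 for Defa40). The alpha-defensin genes are near-identical copies, so the reads of one may have been assigned to another. Apol10c-ps, an apolipoprotein L pseudogene, stood at 16.5, 17.4 and 36.7 FPKM in Mel+MSC, 6.5, 15.2 and 12.4 in Melphalan and 144, 49.2 and 80.4 in Control.

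Among the 8 genes named for the largest rises with the drug, the Mel+MSC means lay between those of the other 2 groups, where a lower level than in Melphalan is favoured by the choice. In 4 of them, Slc13a2, Gsta3, Acox2 and Acta1, the Mel+MSC libraries overlapped Melphalan. The AKT-restraining p53 target Phlda3 (chromosome 1, 135766119 to 135769136, plus strand) stood at 3.76, 5.33 and 2.37 FPKM in Mel+MSC, 20.9, 13.7 and 13 in Melphalan and 3.28, 2.05 and 1.5 in Control. It overlapped Control (log2 difference 0.55, interval -0.08 to 1.18, adjusted p = 0.944) and fell by 1.82 relative to Melphalan (adjusted p = 0.0381). Ephx1 stood at 33.2, 23.4 and 63.3 FPKM in Melphalan, and the Mel+MSC difference from it was -1.55 (adjusted p = 0.163). Gsta3, a glutathione transferase, stood at 10.6, 20.4 and 8.28 FPKM in Mel+MSC, 33.2, 16.1 and 30.2 in Melphalan and 3.37, 3.52 and 6.21 in Control. Slc13a2, the brush border citrate transporter, stood at 60.1, 79.1 and 40.0 FPKM in Mel+MSC, 75.3, 112 and 154 in Melphalan and 25, 10.9 and 31.8 in Control. The peroxisomal oxidase gene Acox2 and the small GTPase gene Rhof showed the same order of means, with log2 differences between Mel+MSC and Control of 0.95 (interval 0.21 to 1.68) and 0.76 (interval 0.15 to 1.36). Of the 8 drug-raised genes, Phlda3 was the one whose Mel+MSC libraries overlapped Control.

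**Figure D3:**
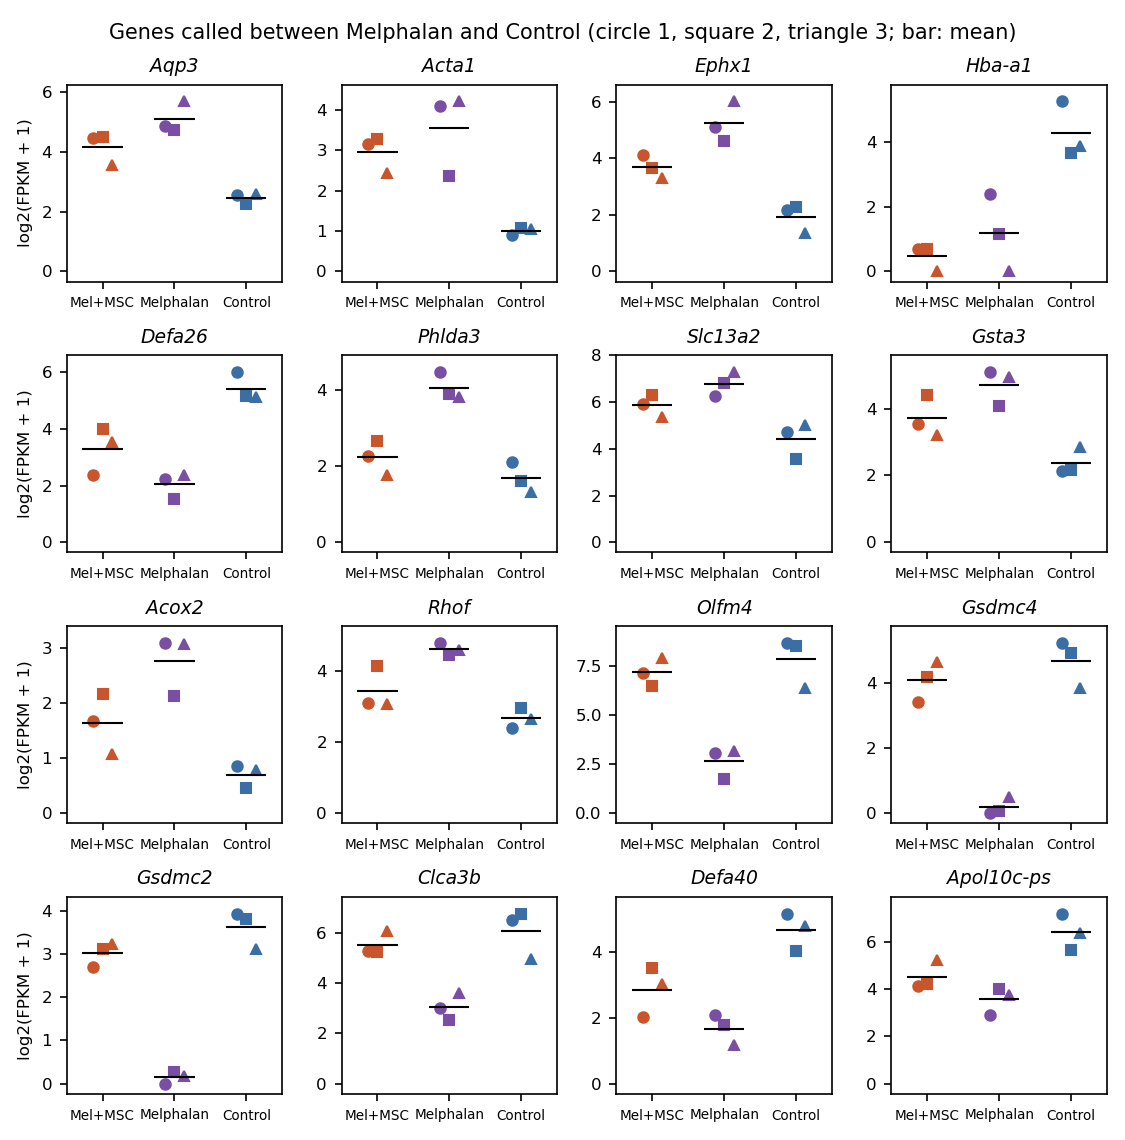
Level of 16 genes called between Melphalan and Control, as log2(FPKM + 1) in each library of Mel+MSC, Melphalan and Control, with circle, square and triangle for libraries 1, 2 and 3 and a bar for the group mean. Olfm4, Gsdmc4, Gsdmc2 and Clca3b overlap Control in Mel+MSC, while Aqp3, Acta1, Ephx1, Hba-a1 and Defa26 do not.

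Gene groups were described by counts and medians of the Mel+MSC minus Control difference, beside the median of 0.01 over all genes, with 52.1% of genes above 0. At an unadjusted p under 0.05, 2.79% of all genes were lower and 2.61% higher. Cell cycle genes stood slightly below Control. The 30 genes of G2 and mitosis had a median of -0.26, with 27 below 0 and 0 at an unadjusted p under 0.05, beside a median of -1.25 for Melphalan against Control. Ccnb2, the mitotic cyclin B2, stood at 17.1, 21.4 and 16.7 FPKM in Mel+MSC, 3.79, 6.07 and 6.13 in Melphalan and 27.3, 31.6 and 15.5 in Control. Its difference was -0.36 from Control (interval -0.91 to 0.19, adjusted p = 0.957) and 1.63 from Melphalan (adjusted p = 0.0378). Mki67, the proliferation antigen, stood at 10.9, 10.5 and 14.5 FPKM in Mel+MSC, against 17.2, 20.4 and 8.95 in Control. The G2 and mitosis median was -0.60 without Control 3 and -0.07 without Control 2. The 30 replication genes of S phase had a median of -0.23, with 1 lower at an unadjusted p under 0.05, close to the 2.79% of all genes: the sliding clamp gene Pcna stood at 76.3, 69.3 and 56.3 FPKM in Mel+MSC and 85.3, 95.5 and 79.5 in Control.

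Crypt stem cell genes had a median of -0.18 over 22 tested members, beside -0.46 for Melphalan. Nrn1, a membrane-anchored neuritin, was the member with an unadjusted p under 0.05, at 0.722, 0.296 and 0.201 FPKM in Mel+MSC, against 2.15, 2.29 and 1.11 in Control (log2 difference -1.01, adjusted p = 0.593). Lgr5, the Wnt-amplifying receptor of the crypt base, was too low for the test, at 0.188, 0.182 and 0.261 FPKM in Mel+MSC, 0.00991, 0.145 and 0.768 in Melphalan and 0.747, 0.747 and 0.856 in Control. Its Mel+MSC libraries lay below all Control libraries, while Olfm4 overlapped. The median of the stem cell list was between -0.35 and -0.01 as single libraries were left out, with -0.35 without Control 3 and also without Mel+MSC 3.

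The p53 targets had a median of 0.17 over 32 members, 19 of them above 0, beside 0.73 for Melphalan. Cdkn1a, which encodes the cell cycle inhibitor p21, stood at 121, 133 and 95.7 FPKM in Mel+MSC, 263, 129 and 261 in Melphalan and 79.3, 66.7 and 111 in Control (Mel+MSC minus Control 0.46, interval -0.18 to 1.10, adjusted p = 0.944). Mdm2, the p53 ubiquitin ligase, stood at 14.4, 15.5 and 15.7 FPKM in Mel+MSC, below the 16.3, 15.8 and 21.1 of Control. Ccng1, cyclin G1, stood at 37.2, 41.3 and 64.1 FPKM in Mel+MSC, 111, 70.8 and 109 in Melphalan and 37.3, 31.6 and 28.5 in Control. Ephx1 and Sulf2, an extracellular sulfatase, were the 2 members at an unadjusted p under 0.05, both higher, against 2.61% of all genes. In 7 members every Mel+MSC library lay above every Control library (5.4% of all genes), and in 2 below (5.07%). The p53 median was 0.06 without Mel+MSC 2. The 23 crosslink repair genes had a median of -0.07, with 6 above 0 and 3 lower at an unadjusted p under 0.05, among them the Fanconi gene Fancc, at 1.87, 1.42 and 1.67 FPKM in Mel+MSC, against 6.75, 3.34 and 2.79 in Control (-0.93, adjusted p = 0.684).

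Paneth, goblet and tuft cell genes stood lower. Paneth cell genes had a median of -1.06 over 26 tested members, 22 of them below 0 and 11 lower at an unadjusted p under 0.05 (2.79% of all genes), beside a median of -1.25 for Melphalan. Lyz1, the Paneth lysozyme (chromosome 10, 117287797 to 117292868, minus strand), stood at 83.6, 256 and 137 FPKM in Mel+MSC and 418, 211 and 330 in Control (log2 difference -1.10, adjusted p = 0.814). Ang4, an antimicrobial ribonuclease, stood at 9.75, 20.6 and 12.4 FPKM in Mel+MSC, 9.06, 7.23 and 11.2 in Melphalan and 34, 27.1 and 62.6 in Control (-1.44, interval -2.26 to -0.63, adjusted p = 0.627). Clps, pancreatic colipase, stood at 5.3, 5.93 and 1.04 FPKM in Mel+MSC, against 16.8, 8.41 and 20.9 in Control. The 3 Mel+MSC libraries did not behave alike: the mean of the list on the log2 scale was 4.79, 6.15 and 4.66 in Mel+MSC, against 6.24, 5.93 and 6.18 in Control. Mel+MSC 2 was thus at the Control level, and the median was -1.61 without it. Under the quality weights, which rest mostly on Mel+MSC 2, the median was -0.02.

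Goblet cell genes had a median of -0.54 over 21 members, with 4 lower at an unadjusted p under 0.05 (2.79% of all genes), beside a median of -0.47 for Melphalan. Clca1, a secreted metalloprotease of mucus, stood at 42.4, 80.6 and 14.4 FPKM in Mel+MSC and 160, 118 and 104 in Control (-1.73, interval -2.83 to -0.64, adjusted p = 0.695). Fcgbp, a mucus scaffold protein, stood at 843, 678 and 254 FPKM in Mel+MSC, against 828, 1147 and 1501 in Control. The goblet median was -0.31 without Mel+MSC 3 and -0.86 without Mel+MSC 2. Tuft cell genes had a median of -0.64 over 13 tested members of 20, and 7 were lower at an unadjusted p under 0.05 (2.79% of all genes). Sh2d6, an adaptor protein of tuft cells, stood at 1.21, 0.431 and 0 FPKM in Mel+MSC, 1.04, 1.19 and 1.14 in Melphalan and 1.72, 1.86 and 4.61 in Control. Avil, the actin-binding protein advillin, stood at 0.752, 0.333 and 0.435 FPKM in Mel+MSC and 1.87, 1.14 and 1.56 in Control, and Dclk1, the usual tuft marker, at 0.773, 1.67 and 1.09 in Mel+MSC, against 2.13, 1.59 and 1.56 in Control. The tuft list averaged 1.45, 1.57 and 0.78 on the log2 scale in Mel+MSC, against 1.85, 1.88 and 2.13 in Control, with no overlap. Its median for Melphalan against Control was 0.03. In pieces of whole tissue, fewer cells of a type and less RNA per cell cannot be told apart.

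Interferon-induced genes stood lower as a group in all 3 Mel+MSC libraries. Many such genes carry in their promoters a short element bound by interferon regulatory factors. They include antiviral effectors and guanylate-binding proteins. All 36 listed genes were tested, 35 had a difference below 0, and the median was -0.445, beside 0.12 for Melphalan. At an unadjusted p under 0.05, 8 were lower, against 2.79% of all genes, and 0 higher. In 11 every Mel+MSC library lay below every Control library, as in 651 (5.07%) of all genes, and non-overlap in either direction held for 10.5% of all genes. The list averaged 3.55, 3.54 and 3.59 on the log2 scale in Mel+MSC, 3.72, 4.42 and 4.35 in Melphalan and 3.78, 4.11 and 4.27 in Control. All 3 Mel+MSC libraries thus lay below all Control libraries. The median ran from -0.54 to -0.34 as single libraries were left out.

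The promoters of Ifit1, Ifit3 and Rsad2 are shown, since these genes run from a difference with an interval clear of 0 to one with an interval across it. They are RefSeq windows of GRCm38.p6, upstream of the RefSeq start and on the strand of the gene, without bases that GENCODE M21 places inside the gene. Capitals mark matches to GAAA, any 2 bases and GAAA again, or the reverse complement, and these letters are a description, not a shown binding site.
Ifit1, chr19:34640739-34640870, plus strand: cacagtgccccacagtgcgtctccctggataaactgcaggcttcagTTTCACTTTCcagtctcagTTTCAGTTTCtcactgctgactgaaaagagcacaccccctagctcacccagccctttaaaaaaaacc
Ifit3, chr19:34583379-34583528, plus strand: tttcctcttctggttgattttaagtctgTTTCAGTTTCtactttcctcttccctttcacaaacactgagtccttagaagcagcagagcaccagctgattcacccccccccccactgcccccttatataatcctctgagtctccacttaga
Rsad2, chr12:26456453-26456602, minus strand: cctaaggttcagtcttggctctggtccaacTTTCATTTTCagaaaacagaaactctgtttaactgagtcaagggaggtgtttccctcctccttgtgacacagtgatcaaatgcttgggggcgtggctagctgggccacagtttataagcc
The Ifit1 window holds 2 copies, which begin 104 and 85 bases before the start, and the others hold 1 each, 122 bases before the start in Ifit3 and 120 in Rsad2. Of the 36 listed genes, 25 had a RefSeq window, and 12 of these held the element within 250 bases upstream on either strand, against 978 of all 32851 windows (2.98%). A gene counted if any of its windows held the element, so the count by gene and the share by window are unlike units. The 12 had a median log2 difference of -0.49 and the 13 without it a median of -0.31, a description with no test.

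Ifit1, which binds viral RNA lacking a host cap (chromosome 19, 34640871 to 34650009, plus strand), stood at 39.7, 22.2 and 48.2 FPKM in Mel+MSC, 78, 36.1 and 81.5 in Melphalan and 72.6, 74.3 and 103 in Control. Its log2 difference from Control was -1.21 (interval -1.95 to -0.47, adjusted p = 0.692). Ifit3, its partner protein, stood at 9.15, 7.66 and 5.54 FPKM in Mel+MSC, against 9.87, 11 and 21.7 in Control. Rsad2, the antiviral enzyme viperin, stood at 2.39, 1.67 and 3.79 FPKM in Mel+MSC, against 4.98, 3 and 6.25 in Control, with an overlap between the groups (-0.67, interval -1.65 to 0.32). Usp18, a protease that removes ISG15 from proteins, stood at 10.5, 7.69 and 11.4 FPKM in Mel+MSC, against 13.1, 16.1 and 22.8 in Control (-0.74, adjusted p = 0.818). Ifit3 and Rsad2 were chosen after their values were seen, for their promoters.

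**Figure D4:**
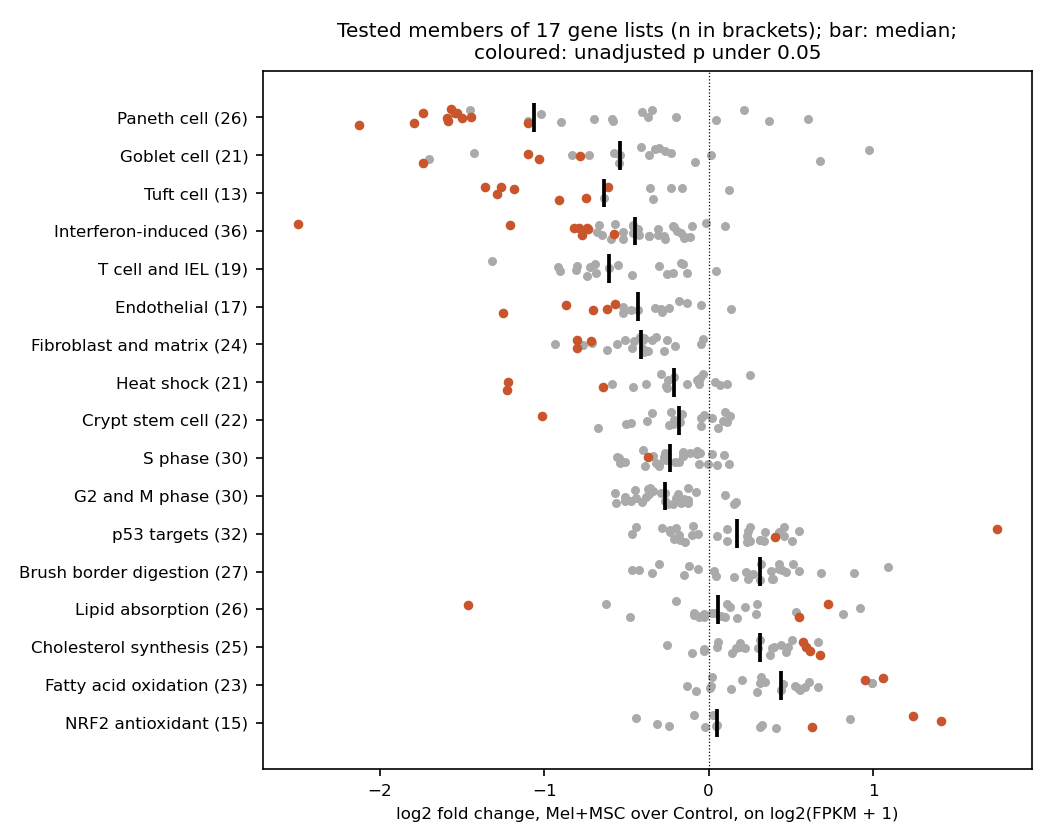
Log2 fold change of Mel+MSC over Control for every tested member of 17 gene lists, 1 row per list with its number of tested members in brackets, a black bar at the median and colour for an unadjusted p under 0.05. The Paneth median lies at -1.06 and 35 of 36 interferon-induced genes lie below 0, while 21 of 25 cholesterol synthesis genes lie above 0.

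Immune gene lists differed in direction, with more medians below 0 than above. The 20 genes of B cell follicles had a median of 0.08, with 13 above 0 and 0 at an unadjusted p under 0.05. The 20 NF-kB and cytokine genes had a median of 0.04, with 11 above 0 and 1 higher at an unadjusted p under 0.05. Plasma cell genes had a median of -0.51 over 16 members, with 3 lower at an unadjusted p under 0.05. Jchain, the joining chain of secreted IgA, stood at 214, 220 and 308 FPKM in Mel+MSC, 147, 627 and 633 in Melphalan and 640, 527 and 989 in Control (log2 difference -1.50, interval -2.62 to -0.39, adjusted p = 0.806). Igha, the IgA heavy chain, stood at 642, 624 and 516 FPKM in Mel+MSC against at least 1710 in every Control library. The plasma cell median was -1.20 without Mel+MSC 2 and -0.21 without Control 2. T cell and intraepithelial lymphocyte genes had a median of -0.61 over 19 members, 18 of them below 0, but 0 at an unadjusted p under 0.05. Cd3e, of the T cell receptor complex, stood at 1.95, 2.69 and 2.09 FPKM in Mel+MSC, against 3.93, 2.38 and 6.12 in Control, and the T cell median was -0.32 without Control 3. The 12 MHC class II genes had a median of -0.30, with 4 above 0 and 1 lower at an unadjusted p under 0.05. Their list mean on the log2 scale overlapped, at 3.94, 5.05 and 3.28 in Mel+MSC, 3.85, 6.90 and 4.35 in Melphalan and 3.78, 4.80 and 4.41 in Control. H2-Ab1, the class II beta chain and the member of smallest p, stood at 152, 167 and 70.8 FPKM in Mel+MSC, 221, 517 and 228 in Melphalan and 207, 256 and 301 in Control. Macrophage and monocyte genes had a median of -0.28 over 19 members, beside 0.62 for Melphalan. Of them 17 lay below 0, and at an unadjusted p under 0.05 there were 0 lower and 1 higher. Csf1r, the macrophage growth factor receptor, overlapped at 1.38, 4.55 and 3.29 FPKM in Mel+MSC and 3.52, 2.71 and 4.43 in Control. The neutrophil gene S100a8 was at 0 in all 6 libraries except Mel+MSC 2, at 0.638 FPKM.

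Endothelial genes had a median of -0.43 over 17 members, with 5 lower at an unadjusted p under 0.05 (2.79% of all genes), beside a median of 0.32 for Melphalan. Ly6c1, a surface protein of small-vessel endothelium in the mouse (chromosome 15, 75044018 to 75048830, minus strand), stood at 4.34, 4.9 and 4.28 FPKM in Mel+MSC, 11.4, 16.2 and 14.8 in Melphalan and 8.82, 9.35 and 8.94 in Control. It lay below Control by 0.87 on the log2 scale without passing (interval -1.28 to -0.46, adjusted p = 0.545) and fell by 1.45 relative to Melphalan (adjusted p = 0.0232). Ly6c1 was named for its small p against Control, a choice that favours a low level in Mel+MSC. Vwf, the von Willebrand factor, stood at 2.14, 3.64 and 1.61 FPKM in Mel+MSC and 4.12, 10.7 and 7.51 in Control. The endothelial median was -0.24 without Mel+MSC 1. All 24 fibroblast and matrix genes had a difference below 0, with a median of -0.41 and 3 at an unadjusted p under 0.05, beside 0.29 for Melphalan. Col15a1, a basement membrane collagen, stood at 1.23, 1.07 and 2.3 FPKM in Mel+MSC, 4.13, 3.99 and 3.51 in Melphalan and 2.9, 2.98 and 4.15 in Control (-0.80, adjusted p = 0.692). Col1a1, the main fibrillar collagen, overlapped at 2.7, 3.6 and 4.71 FPKM in Mel+MSC and 8.13, 5.88 and 2.54 in Control. Myh11, the smooth muscle myosin, also overlapped, at 33.8, 28.9 and 37.5 FPKM in Mel+MSC, against 64.9, 32.9 and 18.4 in Control. The 19 smooth muscle genes had a median of -0.16, with 0 at an unadjusted p under 0.05. The part of muscle or stroma in each tissue piece was not tested.

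Of the lists above the median of all genes, the highest medians were 0.44 for fatty acid oxidation, 0.38 for fasting glucose metabolism, 0.32 for brush border digestion and 0.31 for cholesterol synthesis. Adipose genes followed at 0.28, with all 10 tested members above 0 and 0 at an unadjusted p under 0.05. Ribosomal protein genes and ion and water transport genes stood at 0.25 each. Cholesterol synthesis genes had a median of 0.31 over 25 members, 21 of them above 0 and 4 higher at an unadjusted p under 0.05 (2.61% of all genes), beside -0.25 for Melphalan. Mvk, mevalonate kinase, stood at 7.9, 8.82 and 7.33 FPKM in Mel+MSC, against 5.42, 5.55 and 4.22 in Control, and the sterol demethylase gene Cyp51 at 16.2, 26.4 and 20.4 in Mel+MSC, against 14.5, 11.5 and 14.2 in Control. The cholesterol synthesis median was 0.17 without Control 2.

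Fatty acid oxidation genes had a median of 0.44 over 23 members, 21 of them above 0 and 2 higher at an unadjusted p under 0.05, beside 0.59 for Melphalan, and the median was 0.18 without Control 2. Gsr, glutathione reductase of the NRF2 antioxidant list, stood at 163, 208 and 203 FPKM in Mel+MSC, 77.9, 54 and 110 in Melphalan and 62.9, 117 and 68.9 in Control (1.24, interval 0.56 to 1.93, adjusted p = 0.627). Srxn1, sulfiredoxin of the same list, stood at 94.6, 104 and 92 FPKM in Mel+MSC, against 62.5, 52.8 and 73.1 in Control, while the list as a whole had a median of 0.05 over 15 members. Brush border digestion genes had a median of 0.32 over 27 members and 0 at an unadjusted p under 0.05. Alpi, the intestinal alkaline phosphatase, stood at 181, 241 and 198 FPKM in Mel+MSC, 283, 252 and 539 in Melphalan and 147, 124 and 186 in Control. Apoa4, an apolipoprotein of chylomicrons, stood at 3160, 1477 and 881 FPKM in Mel+MSC, against 2034, 2283 and 3245 in Control.

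**Figure D5:**
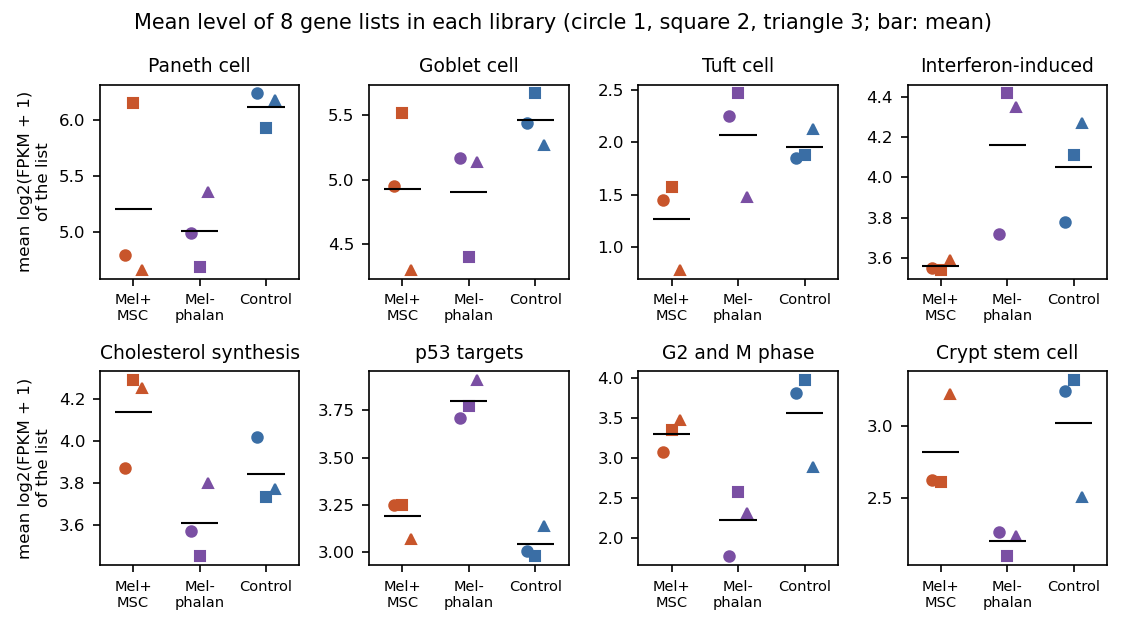
Mean log2(FPKM + 1) of 8 gene lists in each library of Mel+MSC, Melphalan and Control, with circle, square and triangle for libraries 1, 2 and 3 and a bar for the group mean. The vertical axes do not start at 0. The Mel+MSC libraries lie at 3.55, 3.54 and 3.59 for interferon-induced genes, below all Control libraries, while Mel+MSC 2 lies at the Control level for Paneth genes.

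Heat shock genes had a median of -0.21 over 21 members, with 3 lower at an unadjusted p under 0.05. Hspa1a, an inducible HSP70 chaperone, stood at 1.1, 0.766 and 0.265 FPKM in Mel+MSC and 1.25, 2.38 and 6.84 in Control. Its near-identical copy Hspa1b stood at 3.71, 4.17 and 2.86 FPKM in Mel+MSC, against 4.01, 10.9 and 18.9 in Control, and the reads of the copies may have been split between them. The heat shock median was -0.08 without Mel+MSC 3.

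Set against the drug alone, Mel+MSC differed in 20 genes (0.156%), with 14 (0.109%) higher and 6 (0.0467%) lower. Beside those above, the lower ones included Gdf15, a stress-induced hormone of the TGF-beta family, at 0.54, 0.502 and 0 FPKM in Mel+MSC, 4.38, 2.68 and 4.06 in Melphalan and 0.0564, 0.439 and 0.2 in Control. Slc1a1, the epithelial glutamate carrier, was among the higher ones, at 13, 17.4 and 20.9 FPKM in Mel+MSC, 2.91, 2.8 and 4.24 in Melphalan and 16, 15.1 and 9.39 in Control. Both were chosen after their values were seen, and both overlapped Control in Mel+MSC. Leaving out single libraries gave between 0 and 16 genes: 0 without Melphalan 3 and also without Mel+MSC 2, 2 without Mel+MSC 1 and also without Mel+MSC 3, and 4 without Melphalan 1. Of the named calls, that of Gsdmc4 held in 4 of these 6 runs, those of Ly6c1 and Slc1a1 in 2, those of Olfm4, Gsdmc2 and Gdf15 in 1, and those of Phlda3 and Ccnb2 in 0.

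Set against the group with the names in the other order, MSC+Mel, Mel+MSC differed in 1 gene (0.00778%). Tns4, a focal adhesion protein (chromosome 11, 99065678 to 99089306, minus strand), stood at 1.87, 2.58 and 2.27 FPKM in Mel+MSC, 10.3, 10.2 and 7.72 in MSC+Mel and 2.46, 2.12 and 1.71 in Control. It fell by 1.68 relative to MSC+Mel (adjusted p = 0.0378) and overlapped Control. The call held without Mel+MSC 3 and was lost when any of the other 5 libraries of the comparison was left out (adjusted p up to 0.46) and with a replicate block (0.137). Without Mel+MSC 3, 398 genes differed from MSC+Mel.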

How the data were processed

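Total RNA of mouse small intestine was sequenced in 12 libraries, 3 in each of 4 groups, with the TruSeq RNA kit after extraction with the QIAGEN AllPrep kit, per the labels' protocols. Per the submitters' processing notes, the authors used STAR together with Cufflinks and Cuffnorm (versions not given) and the builds mm10 and GRCm38. The deposited table holds 1 FPKM per gene and library. How Cuffnorm scaled the libraries, the annotation release and the strand setting are not given in the sources used here, so overlapping antisense genes cannot be told apart. FPKM carries no total count. Single-fragment steps of low values gave relative depths only.

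A gene was tested if 3 or more libraries reached 1 FPKM. The model, in limma 3.58.1 under R 4.3.3, took log2(FPKM + 1) with 1 mean per group, an intensity trend and 8 residual degrees of freedom. The pseudocount of 1 understates changes of low genes. P-values were adjusted over 12847 genes by the Benjamini-Hochberg method in each of 4 comparisons and called under 0.05. Plots used matplotlib 3.10.9 under Python 3.11.15, and scripts were tested on simulated data.

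Coordinates are from GENCODE M21 on GRCm38. Genes were named by rule: the 8 of smallest p in each direction with no overlap between groups and a higher mean of 5 FPKM or more, the 8 highest and 8 lowest drug changes, up to 3 members of smallest p per list, and fixed markers. Predicted genes, antigen receptor segments, small RNAs and sex-linked genes were left out. 4930479H17Rik, Ifit3, Rsad2, Gdf15 and Slc1a1 are named outside this rule. Members and the 50 gene lists were chosen with earlier results of these data known, so no count of theirs is independent support. The alternatives were another pseudocount, other filters, other scalings, the 6 libraries alone, no trend, library weights, the replicate number as a block and leaving out each library. A few genes named by the rule are not reported here.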

Additional observations from a re-analysis of the deposited data

Results flagged for a closer look

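For 9 named genes the change from Control differed between Mel+MSC and Melphalan, by limma's test of the difference itself, adjusted over all genes. Mel+MSC lay above Melphalan by 4.50 on the log2 scale in Olfm4 (adjusted p = 0.0232), by 3.89 in Gsdmc4 (adjusted p = 0.00998), by 2.86 in Gsdmc2 (adjusted p = 0.0204) and by 1.37 in Gsdmc3 (adjusted p = 0.0381). Gsdmc3 stood at 1.44, 1.95 and 1.39 FPKM in the Mel+MSC libraries, 0 in all 3 Melphalan libraries and 3.9, 2.78 and 2.52 in Control, so its size depends on the pseudocount. The mitotic cyclin gene Ccnb2 lay above Melphalan by 1.63 (adjusted p = 0.0378). The p53 target Phlda3 differed by -1.82 (adjusted p = 0.0381) and the endothelial gene Ly6c1 by -1.45 (adjusted p = 0.0232). The stress hormone gene Gdf15 differed by -1.81 (adjusted p = 0.0284) and the glutamate carrier gene Slc1a1 by 2.06 (adjusted p = 0.0204), and both were chosen after their values were seen. In each of the 9 genes all 3 Mel+MSC libraries lay on the same side of all 3 Melphalan libraries. Olfm4, Gsdmc4, Gsdmc2 and Phlda3 were named for large changes with the drug, a choice that favours such a difference. Ly6c1 was named for its small p against Control, through low values in the same Mel+MSC libraries, which also favours its difference. These calls were not stable. With a replicate block Gsdmc4 and Ly6c1 stayed under 0.05 (adjusted p = 0.0467 each), while the other 7 had adjusted p of 0.0715 to 0.0995. Of the 6 runs that left out 1 library, Gsdmc4 was called in 4, Ly6c1 and Slc1a1 in 2, Olfm4, Gsdmc2 and Gdf15 in 1, and Phlda3, Ccnb2 and Gsdmc3 in 0. Tns4 was the 1 gene whose change from Control differed between Mel+MSC and MSC+Mel, by -1.68 (adjusted p = 0.0378), with all 3 Mel+MSC libraries below all 3 MSC+Mel libraries. That call was lost in 5 of 6 runs that left out 1 library and with a replicate block (adjusted p = 0.137).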

How the results depend on the processing

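The count of 0 genes between Mel+MSC and Control also held with the 6 libraries alone, no intensity trend, median-of-ratios rescaling, quantile normalization, a higher filter (a mean of at least 5 FPKM) and 1 weight per group. With the 6 libraries alone, limma's test gave a smallest adjusted p of 0.174 and 599 genes at an unadjusted p under 0.05. A pseudocount of 0.1 gave 1 gene, and no filter gave 2. Library weights gave 226, although their estimate did not converge, and weights estimated gene by gene gave 13; the second form and the weights per group were chosen after seeing the data. Leaving out single libraries gave 0 to 1 genes, with 1534 genes at an unadjusted p under 0.05 without Mel+MSC 3. The same left-out runs gave 9 to 420 genes for Melphalan against Control, 0 to 16 for Mel+MSC against Melphalan and 0 to 398 for Mel+MSC against MSC+Mel. A block for the replicate number gave 1 gene for Mel+MSC against Control (Hba-a1, adjusted p = 0.0483), 73 for Melphalan against Control, 3 for Mel+MSC against Melphalan and 0 for Mel+MSC against MSC+Mel. The labels do not say what the replicate numbers stand for. Deviations of same-numbered Mel+MSC and Control libraries correlated at -0.369, 0.185 and -0.34. Of 12 libraries, 5 correlated best with their own number. These values do not decide whether same-numbered libraries share a batch. Of 106 named genes, 102 kept the sign of their difference from Control in every setting, as did 29 of 46 list medians. Ms4a1 was 0.11 after quantile normalization, 1.07 with library weights and 0.75 with gene-by-gene weights, and -1.10 to 0.93 as libraries were left out. Csf1r was 0.23 and 0.084 under these weights and -0.49 to 0.12 as libraries were left out. Myh11 ran from -0.47 to 0.42 and Tns4 from -0.028 to 0.15 in the left-out runs. The cause of these shifts was not tested. With 3 libraries a group, the 95% interval reached a median of 0.57 either side of the log2 difference. An interval clear of 0 stands for an unadjusted p under 0.05, and a call after adjustment over all genes asks for more. The interval excluded 0 for 694 genes and none was called, not even Hbb-bs at -3.95 (adjusted p = 0.336 in limma's test). Differences well above 0.57 could thus also go uncalled.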

Other observations

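Hormone, barrier and transport genes were also read in Mel+MSC against Control, with no gene passing limma's test. Enteroendocrine genes had a median log2 difference of -0.14 over 19 members, with 11 below 0 and 8 above. Single members ran from -1.37 to 0.967, and Gcg and Chga, given here, both lay on the higher side. Gcg, the precursor of the gut peptide GLP-1, stood at 14.1, 19.9 and 11.1 FPKM in Mel+MSC and 7.47, 12.9 and 4.38 in Control (log2 difference 0.86, adjusted p = 0.923). Chga, a granin of hormone granules, stood at 17.1, 14.6 and 2.47 FPKM in Mel+MSC and 3.79, 8.39 and 7.85 in Control. Slc36a1, a proton-coupled amino acid carrier, stood at 38.6, 36.3 and 47.3 FPKM in Mel+MSC, above the 12.6, 25.3 and 22.3 of Control (1.03, adjusted p = 0.627). Abcc3, an efflux pump for conjugated compounds, stood at 37.1, 15.3 and 22.8 FPKM in Mel+MSC and 11.5, 7.77 and 14.5 in Control (1.04, adjusted p = 0.692). The list of 10 efflux transporters had a median of 0.19 in Mel+MSC, beside 0.80 for Melphalan against the same Control libraries. Vip, the vasoactive intestinal peptide of enteric neurons, stood at 4.36, 5.4 and 6.31 FPKM in Mel+MSC and 29.8, 25.7 and 6.32 in Control, so that Control 3 lay at the Mel+MSC level.

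Clock genes spread widely, and the labels give no hour of collection. Nr1d1, the clock repressor REV-ERB alpha, stood at 28.1, 6.72 and 7.01 FPKM in Mel+MSC and 0.772, 1.95 and 10.1 in Control. Arntl, the clock activator BMAL1, stood at 11.4, 14.4 and 14.5 FPKM in Mel+MSC and 17.8, 20.0 and 22.5 in Control, and Per2, a period gene, at 1.28, 1.5 and 1.54 in Mel+MSC, against 3.7, 2.49 and 2.82 in Control. The hour of collection cannot be told apart from the groups.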
